A study of Mus musculus with 9 samples.

Results

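DNA methylation was described at 7 genes of neurotrophic signalling in the mouse nucleus accumbens: Bdnf, Ntf3, Gdnf, Ntrk2, Ret, Gfra1 and Vgf. The genes were taken from a written list by name and are 7 of 34328 genes with coordinates. They hold 15 of the 40153 start windows considered. A start window is the 1000 bp on each side of an annotated transcription start, or of a gene end where no start was matched. The nucleus accumbens is a part of the ventral striatum that serves reward and motivation. DNA came from frozen punches of male C57BL/6J mice, an inbred strain, aged 8 weeks, in 9 samples, 5 labelled Control and 4 labelled Susceptible, with 1 library per sample. The labels describe 10 daily defeats by an aggressive male of the CD1 strain in the same words for every library. The handling of Control mice and the scoring of susceptibility are therefore not given in the sources used here. Punches are mixed tissue, so a level is an average over neurons and glia, and a shift in the mix of cells and a shift within cells cannot be told apart.

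Neurotrophins are secreted proteins that act through receptor tyrosine kinases on neurons. BDNF, encoded by Bdnf, binds the receptor TrkB, encoded by Ntrk2, and neurotrophin 3, encoded by Ntf3, binds chiefly a related receptor. GDNF, a ligand known for its effects on dopamine neurons, binds the membrane-anchored co-receptor GFRA1, and the pair then engages the RET kinase. Vgf is a target gene of neurotrophins that encodes a secretory precursor of neuropeptides. BDNF delivered to the nucleus accumbens from dopamine neurons of the midbrain is widely studied in social defeat. Bdnf has several promoters, most of them with a separate first exon spliced to a shared coding exon. The promoter usually numbered IV is known for its response to neuronal activity. CpG-rich promoters are usually free of methylation in adult tissue whether or not the gene is transcribed.

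Bisulfite sequencing reads a methylated or hydroxymethylated cytosine as C and an unmodified one as T. The level of a region is the percent of its calls read as C, summed over its CpGs with both strands added. The libraries listed 313475624 to 570984634 calls, and every Susceptible library listed more than every Control library. Control 5 and Control 8 stood apart: the disagreement between the strands of a CpG, measured against its binomial value of 1, was 18.4 and 19.7 there and 2.38 to 6.11 in the other libraries. Susceptible 7 had the lowest autosomal level, 74.5%, against 75.7 to 77.1% in the other libraries. The median level over all tested genes was 36.5% for start windows and 77.6% for gene bodies. Gene bodies lay below that median for 9 of 9 marker genes of striatal projection neurons, 4 of 5 of cortical projection neurons, 3 of 4 of oligodendrocytes, 1 of 3 of astrocytes and 1 of 4 of microglia. The dopamine receptor gene Drd1 had a median body level of 28.6% over the libraries, and methylation alone does not give the shares of these cell types.

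RefSeq's promoter table on GRCm38.p6, the build the deposited coordinates matched, gave 13 starts for 5 of the genes. For Ret and Vgf, which were not matched in it, the gene end with more CpGs stood in for a start. The strand of these genes was not used, so that end may be the 3′ end and not the promoter. The sequences printed here are the 250 bases before and 50 after a start, 5′ to 3′ on the gene's strand, with each CG, the site that was measured, in capitals. Bdnf starts 1 and 3 show lowly methylated promoters with somewhat more CpGs than the median promoter. Fewer CGs were held by 58.6 and 60.4% of all promoters. Bdnf starts 6 and 7 show the exceptions in level, and Gdnf start 1 shows another ligand.
Bdnf start 1, chr2:109674450-109674749, + strand: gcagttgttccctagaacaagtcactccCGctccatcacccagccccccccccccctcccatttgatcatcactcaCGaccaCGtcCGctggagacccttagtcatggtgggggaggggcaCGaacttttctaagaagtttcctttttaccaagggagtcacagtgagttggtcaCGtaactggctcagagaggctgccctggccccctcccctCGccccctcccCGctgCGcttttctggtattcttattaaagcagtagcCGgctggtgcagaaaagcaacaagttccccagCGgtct
Bdnf start 3, chr2:109692186-109692485, + strand: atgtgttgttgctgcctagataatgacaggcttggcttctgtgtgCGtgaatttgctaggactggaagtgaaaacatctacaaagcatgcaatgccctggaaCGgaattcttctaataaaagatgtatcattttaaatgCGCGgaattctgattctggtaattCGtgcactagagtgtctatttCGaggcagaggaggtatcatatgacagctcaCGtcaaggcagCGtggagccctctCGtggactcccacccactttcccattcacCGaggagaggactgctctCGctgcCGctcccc
Bdnf start 6, chr2:109709133-109709432, + strand: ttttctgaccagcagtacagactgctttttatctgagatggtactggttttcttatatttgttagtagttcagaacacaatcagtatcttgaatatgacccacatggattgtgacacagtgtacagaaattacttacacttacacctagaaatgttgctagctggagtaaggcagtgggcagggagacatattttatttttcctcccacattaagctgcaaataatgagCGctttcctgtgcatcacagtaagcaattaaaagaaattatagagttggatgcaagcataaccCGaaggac
Bdnf start 7, chr2:109722671-109722970, + strand: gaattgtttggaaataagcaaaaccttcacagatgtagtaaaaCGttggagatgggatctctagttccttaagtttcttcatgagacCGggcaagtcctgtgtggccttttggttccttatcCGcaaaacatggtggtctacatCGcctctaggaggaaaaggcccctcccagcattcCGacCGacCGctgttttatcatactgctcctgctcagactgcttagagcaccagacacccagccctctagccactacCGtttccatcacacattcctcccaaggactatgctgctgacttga
Gdnf start 1, chr15:7809798-7810097, + strand: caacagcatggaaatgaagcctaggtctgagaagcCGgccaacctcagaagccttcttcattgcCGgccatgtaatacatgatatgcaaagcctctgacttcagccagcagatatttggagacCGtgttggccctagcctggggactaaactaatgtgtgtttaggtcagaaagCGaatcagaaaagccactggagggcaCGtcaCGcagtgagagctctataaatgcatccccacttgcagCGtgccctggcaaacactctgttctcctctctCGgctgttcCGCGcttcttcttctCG

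These 5 sequences differ in CpG content. Bdnf starts 1 and 3 held 11 and 12 CGs, Gdnf start 1 held 11 and Bdnf start 7 held 8, against a median of 7 over the 32851 promoters of the table. Bdnf start 6 held 2, at -21 and +42 bp, where negative positions lie before the start. Its 2 CpGs read 88.0% over 133 calls and 89.8% over 293 calls with the libraries pooled. Over these 300 bases Bdnf start 1 read 1.25%, Bdnf start 3 read 6.76% and Gdnf start 1 read 4.80%. Bdnf start 7 was intermediate at 38.8%, and its CpGs were uneven: 35.4 to 63.1% at 6 of 8 positions, 27.4% at -68 bp and 15.2% at +5 bp.

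Motifs were searched on both strands of the 13 promoter sequences. The full cAMP response element, TGACGTCA, which the factor CREB is known to bind and which occurs in 1.79% of all promoters in the table, was in none of these windows. Its shorter form TGACG, found in 20.8% of all promoters and contained in the full element, occurred at Bdnf start 3 and Gdnf start 1, on the opposite strand at both. The E-box CACGTG, found in 7.15% of all promoters and its own reverse complement, occurred in 1 of the 13, Ntf3 start 1. The sequence around each match is printed with the match in capitals, as read on the gene's strand.
Bdnf start 3, -35 to -31 bp: atgacagctcaCGTCAaggcagcgtgg
Gdnf start 1, -50 to -46 bp: actggagggcaCGTCAcgcagtgagag
Ntf3 start 1, -231 to -226 bp: ggtgcagcccaCACGTGtatttaacccg

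The CpG inside the Bdnf match, chr2:109692401, lies in the promoter usually numbered IV. It was read as C in 1 of 77 calls over 5 libraries, 1.30% with a 95% Wilson interval of 0.230 to 6.996%. The CpG inside the Gdnf match, chr15:7809998, was read as C in 0 of 108 calls over 4 libraries, which allows a level of up to 2.78% by a limit of 3 counts, or 3.435% by the Wilson interval. Both positions missed the deposited minimum of 10 calls in the remaining libraries, so the groups were not compared at them. The CpG inside the Ntf3 match, chr6:126166972, was read as C in 8 of 212 calls over 8 libraries, 3.77% with a Wilson interval of 1.92 to 7.27%. Intervals and limits here cover counting error only, since sequenced copies of a molecule are not independent. TATAA, found on either strand in 24.9% of all promoters, occurred in 3 of the 13. It lay on the gene's strand at Gdnf start 1, on both strands at Ntf3 start 2 and on the opposite strand at Bdnf start 6. It is printed for Gdnf, whose match began at -31 bp.
Gdnf start 1, -31 to -27 bp: agtgagagctcTATAAatgcatcccca

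Across the start windows of the 7 genes, 13 of 15 read under 50% in every library and the remaining 2 were Bdnf starts 6 and 7. By Control mean the order rose from Gfra1 at 1.86% through Bdnf starts 5 and 2, the Ret gene end, Bdnf starts 4 and 1, Gdnf start 1, Ntf3 start 2, the Vgf gene end, Bdnf start 3, Gdnf start 2 and Ntrk2 to Ntf3 start 1 at 29.8%. Bdnf start 7 followed at 87.0% and Bdnf start 6 at 89.9%. The step from Ntf3 start 1, at most 45.9% in any library, to Bdnf start 7, at least 80.8%, had no overlap. Over all 9 libraries the other 13 of the 14 pairs of neighbours in this order overlapped. Within Control alone 2 of these pairs did not overlap. Bdnf start 4, at most 3.70%, lay below Bdnf start 1, at least 4.18%, and Ntrk2, at most 16.8%, lay below Ntf3 start 1, at least 20.7%. Among Susceptible libraries Ntf3 start 1 overlapped Ntrk2 through Susceptible 7 alone, at 13.2%. Within Susceptible alone the pairs without overlap, beside the step to Bdnf start 7, were Bdnf start 2 below the Ret gene end and Bdnf start 1 below Gdnf start 1. The 95% Wilson half-widths of single library values were 0.409 to 6.15 points.

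**Figure D1:**
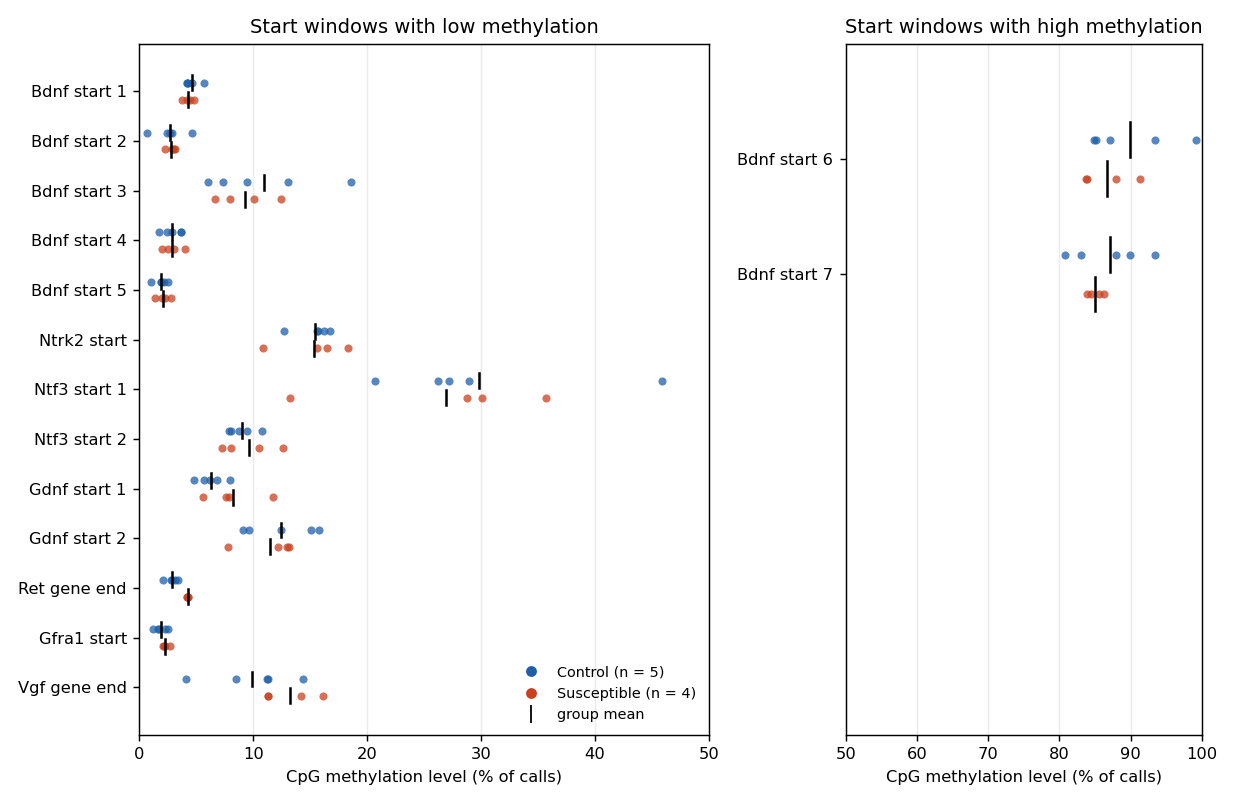
CpG methylation level, in percent of calls, within 1000 bp of each start or gene end of the 7 genes. Points are libraries (blue Control, n = 5; red Susceptible, n = 4) and black bars are group means. The left panel holds the lowly methylated windows and the right panel Bdnf starts 6 and 7, all above 80%; only at the Ret gene end do the colours separate.

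None of the 15 start windows differed between Control and Susceptible past an adjusted p of 0.05. The test was a quasi-binomial model on methylated and unmethylated calls, with Benjamini-Hochberg adjustment over 36398 start windows. Of those windows, 0 were called (0.0%), 4.75% had an unadjusted p under 0.05 and 1.82% had groups that did not overlap. Among the 15, 1 had an unadjusted p under 0.05 and non-overlapping groups, the Ret gene end, higher in Susceptible. Over all windows 2.29% were higher at that p and 0.967% were higher without overlap. The limma test on logit methylation called 0 of 15 as well, and again 1 had an unadjusted p under 0.05. Over all windows limma called 0 and gave 3.81% an unadjusted p under 0.05. The mean was higher in Susceptible at 8 of 15, and at 47.6% of all windows. Windows of Bdnf starts 3, 4 and 5 overlap, as do those of the 2 Ntf3 starts, so the 15 are not separate regions. The median difference, Susceptible minus Control, was 0.04 points for the 15 and -0.08 for all.

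Bdnf, the BDNF ligand, has 7 starts on chromosome 2, at 109674700, 109677032, 109692436, 109693027, 109694409, 109709383 and 109722921. Starts 1, 2, 4 and 5 read 0.666 to 5.69% in every library. Start 1 had group means of 4.60 ± 0.633% in Control (SD, n = 5) and 4.26 ± 0.452% in Susceptible (SD, n = 4). The difference of -0.338 points had an exact two-sided permutation p of 0.460, and was -0.0664 points without Control 8. Starts 2, 4 and 5 differed by 0.161, 0.0395 and 0.1997 points, each less than the SD of either group.

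Bdnf start 3, at the activity-responsive promoter, varied most among the lowly methylated Bdnf starts. Its level was 9.46, 13.1, 6.02, 7.38 and 18.6% in Control libraries 2, 3, 4, 5 and 8, and 6.66, 10.03, 12.5 and 7.96% in Susceptible libraries 2, 3, 6 and 7. The groups overlapped broadly and the highest value was that of Control 8. The means were 10.9 ± 5.04% and 9.27 ± 2.53%, and the difference of -1.62 points (permutation p = 0.619, exact) became 0.295 points without Control 8. Coverage here was thin, at 420 to 1202 calls per library. Of its 12 promoter CpGs, 0 were listed in all 9 libraries, and the levels pooled over libraries ran from 0% over 162 calls at -66 bp to 31.8% over 85 calls at -205 bp.

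Bdnf starts 6 and 7, which lie towards the 3' side of the gene, were highly methylated in both groups. Start 6 read 89.9 ± 6.19% in Control and 86.7 ± 3.62% in Susceptible, over only 12 CpGs and 128 to 232 calls per library. Start 7 read 87.0 ± 5.11% and 85.1 ± 1.11%, although the 300 bases at the start itself read 38.8% with the libraries pooled. There the groups read 31.2 ± 18.4% and 41.6 ± 10.2%, the opposite direction. Only 1 of the 8 CpGs in those bases was listed in all 9 libraries, so the libraries averaged unlike sites. Neither difference, -3.23 and -1.98 points, exceeded the Control SD, and both sets of values overlapped. The difference was -0.928 points at start 6 without Control 5 and -0.390 points at start 7 without Control 8.

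The 2 starts of Ntf3, on the minus strand of chromosome 6, stood at different levels. Start 1, at 126166744, read 28.9, 26.3, 20.7, 45.9 and 27.2% in Control libraries 2, 3, 4, 5 and 8, and 28.8, 35.7, 30.1 and 13.2% in Susceptible libraries 2, 3, 6 and 7. Control 5 was the highest and Susceptible 7 the lowest, and the others lay between them in both groups. The means were 29.8 ± 9.51% and 26.9 ± 9.64% (exact permutation p = 0.714). The difference of -2.85 points turned to 1.73 points without Susceptible 7. Start 2, at 126164960, was lower, at 7.23 to 12.6% in every library, and differed by 0.604 points between the groups.

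Gdnf, the ligand of the GFRA1 and RET complex, has starts at 7810048 and 7813727 on chromosome 15. Start 1 read 5.70, 6.79, 4.81, 6.23 and 7.94% in Control and 5.57, 7.62, 7.87 and 11.8% in Susceptible, in the same order of libraries. Susceptible 7 was above all others, and Susceptible 2, 3 and 6 were within the Control range. The means were 6.30 ± 1.17% and 8.21 ± 2.59%, a difference of 1.91 points (exact permutation p = 0.175). That difference was 0.724 points without Susceptible 7 and 0.4497 points within 500 bp. Start 2 read 12.4 ± 3.03% and 11.5 ± 2.54%, with Susceptible 7 the lowest library at 7.74%. Its difference of -0.882 points turned to 0.373 points without Susceptible 7.

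The TrkB gene Ntrk2, on chromosome 13, was tested at a start at 58806569 with 96 CpGs. Its level was 12.7, 15.7, 15.6, 16.2 and 16.8% in Control and 16.4, 18.3, 10.9 and 15.6% in Susceptible. The group means, 15.4 ± 1.56% and 15.3 ± 3.15%, differed by -0.105 points. That difference was -1.10 points without Susceptible 3 and 1.36 points without Susceptible 6. The 300 bases at the start held 23 CGs and read 0.979%, so the higher level of the window came from CpGs outside them. Gfra1, the GDNF co-receptor gene on the minus strand of chromosome 19, had the lowest Control mean of the starts, while Bdnf start 5 had the lowest Susceptible mean. It read 1.86 ± 0.531% and 2.27 ± 0.274% at 58455398 (exact permutation p = 0.222), and the difference of 0.418 points was -0.199 within 500 bp and -1.54 within 2000 bp.

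At Ret, the receptor kinase gene on chromosome 6, the CpG-rich gene end at 118197744 was higher in all 4 Susceptible libraries than in any Control library. Control 2, 3, 4, 5 and 8 read 3.37, 2.85, 3.14, 2.08 and 2.79%, and Susceptible 2, 3, 6 and 7 read 4.20, 4.31, 4.14 and 4.26%. The means were 2.84 ± 0.484% and 4.23 ± 0.0739%, a difference of 1.38 points. The unadjusted p of 0.00601 gave an adjusted p of 0.977 in the quasi-binomial model, and the exact permutation p was 0.00794, the smallest that 5 against 4 samples allow. A larger absolute difference was found at 46.3% of all start windows. Their median level was 36.5%, so this share does not compare windows of a like low level.

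The Ret difference lay in CpGs that were not listed in every library. Of its 122 CpGs, the 66 listed in all 9 libraries read 2.90 ± 0.497% in Control and 3.01 ± 0.234% in Susceptible, a difference of 0.105 points (exact permutation p = 0.690). The CpGs missing from at least 1 library read 2.66 ± 1.12% and 6.203 ± 0.263% (exact permutation p = 0.00794). They took 32.9 ± 7.14% and 38.1 ± 2.14% of the calls. Which CpGs passed the deposited minimum of 10 calls differed between libraries, and Susceptible libraries listed more. The part of this in the result was not tested. The difference was 0.726 points within 500 bp and 2.81 points within 2000 bp.

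**Figure D2:**
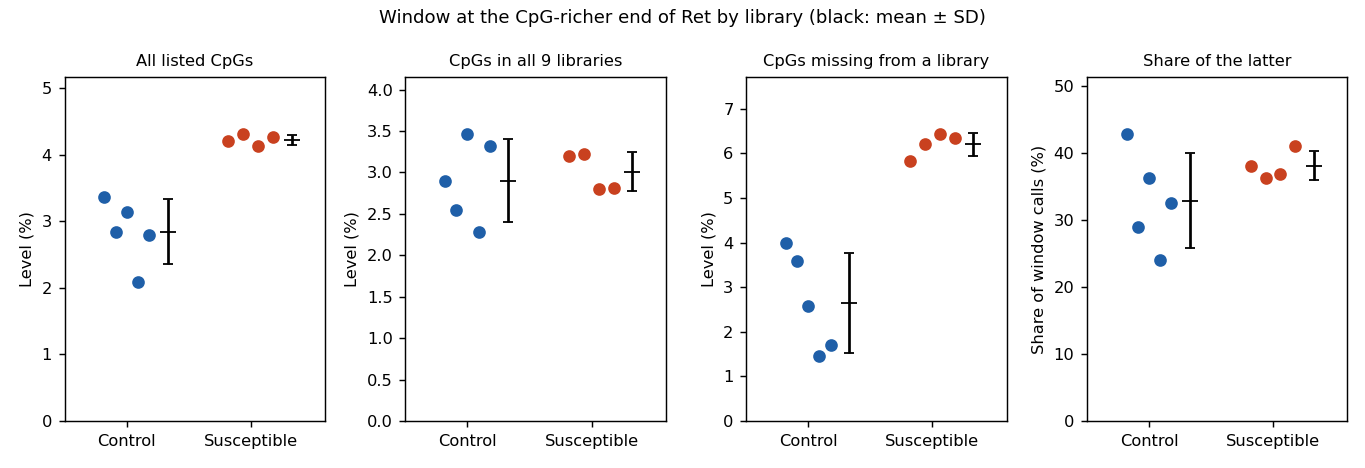
The window at the CpG-rich end of Ret by library: level over all listed CpGs, over CpGs listed in all 9 libraries, over the other CpGs, and the share of calls at the latter, all in percent. Blue points are Control (n = 5), red points Susceptible (n = 4), and black marks are mean ± SD; the groups separate over all CpGs and over the incompletely listed CpGs, and overlap over the CpGs shared by all libraries.

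Vgf, the neuropeptide precursor gene on chromosome 5, was low at both gene ends. At the CpG-richer end, 137033351, Control libraries read 8.46, 11.3, 11.2, 4.12 and 14.4% and Susceptible libraries 11.3, 11.3, 16.1 and 14.2%. The groups overlapped, with Control 5 lowest. The means of 9.90 ± 3.85% and 13.2 ± 2.33% differed by 3.33 points (exact permutation p = 0.206). That difference was 1.88 points without Control 5, 8.22 points within 500 bp and 1.27 points within 2000 bp. Over CpGs listed in all 9 libraries they were 8.06 ± 3.64% and 15.8 ± 3.78% (exact permutation p = 0.0238), and over the other CpGs 11.9 ± 4.70% and 11.9 ± 2.21%. The quasi-binomial model on the shared CpGs gave an adjusted p of 0.928. This split was computed for all 15 windows. Its p-values are given for Ret and for the shared CpGs of Vgf, which held the smallest for a level. Elsewhere the smallest exact permutation p of a level in the split was 0.119, at Gdnf start 1. For the share of calls at incompletely listed CpGs, the smallest exact permutation p was 0.0159, at Gfra1. That share was 19.9 ± 3.92% in Control and 26.8 ± 1.42% in Susceptible, and the groups were apart. The other Vgf end, at 137025301, read 6.89 ± 3.95% and 5.06 ± 1.22%. The other Ret end, at 118151748, was highly methylated at 90.5 ± 3.28% and 88.4 ± 2.47%.

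**Figure D3:**
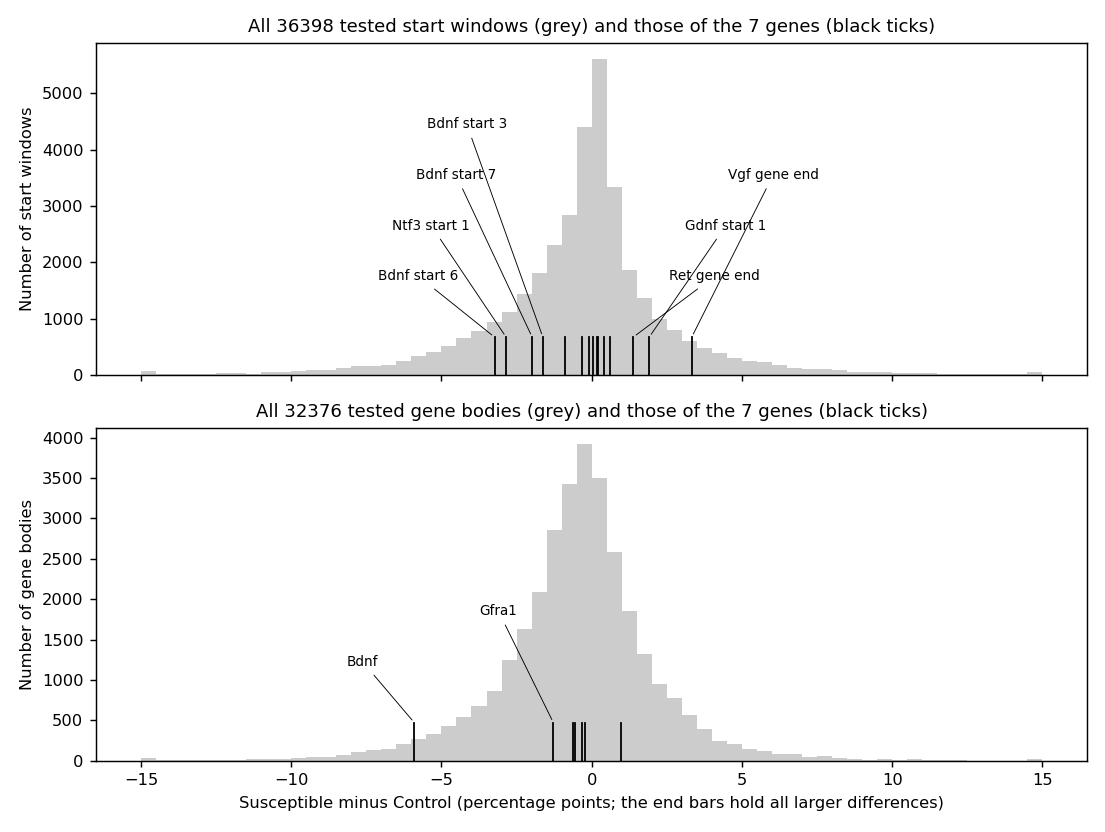
Histograms of the difference between group means, Susceptible minus Control in percentage points, over 36398 start windows (top) and 32376 gene bodies (bottom), with the 7 genes as black ticks. The vertical axes count windows or bodies; the ticks lie inside the bulk of the distributions except that of the Bdnf body at -5.90 points.

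Gene bodies differed far more between genes than between groups. The Vgf body was nearly unmethylated, at 5.49 ± 0.436% in Control. Gdnf and Bdnf were intermediate at 38.0 ± 4.39% and 39.9 ± 3.15%, and did not differ beyond their spread. Ret and Ntf3 followed at 71.3 ± 2.55% and 71.5 ± 1.28%, also within their spread, then Ntrk2 at 76.7 ± 1.26% and Gfra1 at 81.0 ± 1.01%. Libraries of Ntrk2 and Gfra1 did not overlap in Control and overlapped in Susceptible. Bodies of the 7 genes held 357 to 3968 CpGs.

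No gene body was called among 32376 (0.0%), where 4.73% had an unadjusted p under 0.05 and 1.61% had groups that did not overlap. Of the 7 bodies, 0 were called by the quasi-binomial model or by limma, and 0 had non-overlapping groups. Over all bodies limma called 0 too. The quasi-binomial model gave 1 body, Bdnf, an unadjusted p under 0.05. The Bdnf body was lower in Susceptible. Over all bodies 3.29% were lower at that p and 1.44% were higher. Outside Bdnf, differences ran from -1.27 points at Gfra1 to 0.979 points at Ret, which was 0.0525 points without Control 5, and the median over all bodies was -0.388 points.

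The body of Bdnf, chr2:109674700-109727043, read 35.9, 44.7, 39.0, 39.8 and 40.1% in Control libraries 2, 3, 4, 5 and 8 and 34.7, 33.4, 35.9 and 31.9% in Susceptible libraries 2, 3, 6 and 7. Only Control 2 and Susceptible 6 met, and the other Control libraries were above all Susceptible libraries. The means of 39.9 ± 3.15% and 34.0 ± 1.74% differed by -5.90 points. The unadjusted p of 0.00319 became 0.993 after adjustment, and the exact permutation p was 0.0238. A larger absolute difference was found at 4.55% of bodies.

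The share of Bdnf calls in low-methylated stretches moved with this difference, and its part in the result was not tested. These stretches, runs of 1-kb tiles with a pooled level under 50%, took 63.5, 54.3, 60.8, 59.0 and 60.4% of the Bdnf body calls in Control and 64.3, 66.3, 64.7 and 65.2% in Susceptible. All 4 Susceptible shares were above the highest Control share (exact permutation p = 0.0159). This share was computed for all 7 bodies, and the exact permutation p was 0.143 to 0.524 in the other 6. The level outside the stretches was 88.8 ± 1.52% and 87.4 ± 3.17%, a difference of -1.43 points (exact permutation p = 0.468). The level inside them was 6.71 ± 0.718% and 5.43 ± 0.661% (exact permutation p = 0.0397). With each of the 142 CpGs listed in all 9 libraries weighted equally, the body read 31.7 ± 0.431% and 31.0 ± 1.47%, a difference of -0.750 points (exact permutation p = 0.325), a weighting chosen after seeing the data. With the calls of the same 142 CpGs summed, the difference was -4.50 points (quasi-binomial model, unadjusted p = 0.0643, adjusted p = 0.990). With at least 20 calls at a cytosine it was -9.74 points (unadjusted p = 0.00222, adjusted p = 0.741 in the quasi-binomial model). Susceptible libraries also listed more Bdnf CpGs, 457.25 on average against 380.6, and more on average in each of the other bodies too.

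**Figure D4:**
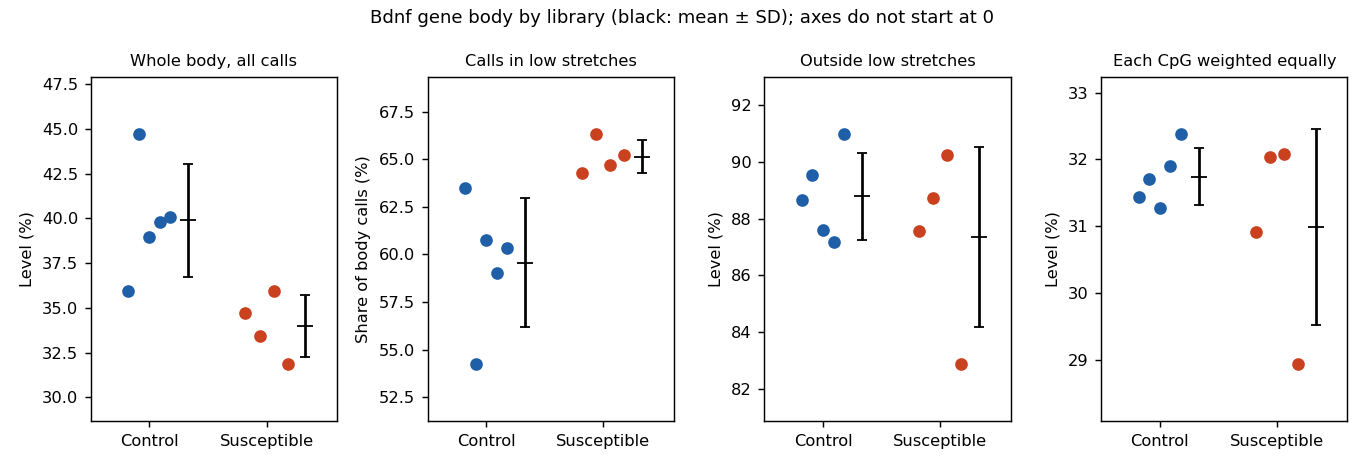
The Bdnf gene body by library: level over all calls, share of calls in low-methylated stretches, level outside those stretches, and level with each CpG of all 9 libraries weighted equally, in percent on axes that do not start at 0. Points are libraries and black marks are mean ± SD (Control n = 5, Susceptible n = 4); the share of calls separates the groups, and the last 2 levels overlap.

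The 4 levels of this kind (inside the low stretches, outside them, and the body and its outside part with CpGs weighted equally) were computed for each of the 7 bodies, 28 in all. Of the 24 in bodies other than Bdnf, 21 had an exact permutation p of 0.238 to 0.992. The other 3 are given here because their p was under 0.05, and the smallest p adjusted over the 28 was 0.222. In Ret the level inside the low stretch was 6.06 ± 0.616% and 7.22 ± 0.554% (exact permutation p = 0.0397). Control 8, at 7.021%, lay above Susceptible 2 and 3, at 6.581 and 7.018%. In Vgf the 8 CpGs outside the low stretches read 75.1 ± 5.74% and 66.1 ± 5.09% (exact permutation p = 0.0476), and Control 4, at 66.3%, lay below Susceptible 2, 3 and 7. The 3 of them listed in all 9 libraries, weighted equally, read 81.7 ± 6.84% and 69.5 ± 4.26% (exact permutation p = 0.00794), the one level of the 28 without overlap between groups. Over whole bodies, Ntf3 read 71.5 ± 1.28% and 70.9 ± 3.40%, with Susceptible 7 at 65.8% and the other Susceptible libraries at 72.3 to 72.9%. Susceptible 7 was also the lowest library in the Ntrk2 body, at 71.3%. The Vgf body read 6.16, 5.41, 4.95, 5.44 and 5.50% in Control and 4.75, 4.90, 4.35 and 5.44% in Susceptible. Its difference of -0.633 points had an exact permutation p of 0.0556, and was 0.0283 points over CpGs listed in all 9 libraries. The Ntrk2 body includes the long noncoding RNA gene Gm53063, and the Gfra1 body overlaps Gm46650 and Gm10007, so calls there belong to more than 1 gene.

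Tiles of 1 kb show where the genes were unmethylated. In Bdnf, 26 of 70 tiles with a CpG within the gene and 10 kb on each side passed the minimum of 3 CpGs and 20 calls in every library. A stretch of 5 kb, chr2:109674001-109679000, held starts 1 and 2 and read 4.88 ± 1.30% in Control and 3.92 ± 0.597% in Susceptible. A second stretch of 4 kb, chr2:109692001-109696000, held starts 3, 4 and 5 and read 3.13 ± 0.958% and 3.17 ± 0.636%. The remaining 2 low stretches were single tiles. That at start 7 read 50.8 ± 12.8% and 46.3 ± 10.1%, and that at 109697001 read 41.5 ± 22.2% and 31.7 ± 8.20%.

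**Figure D5:**
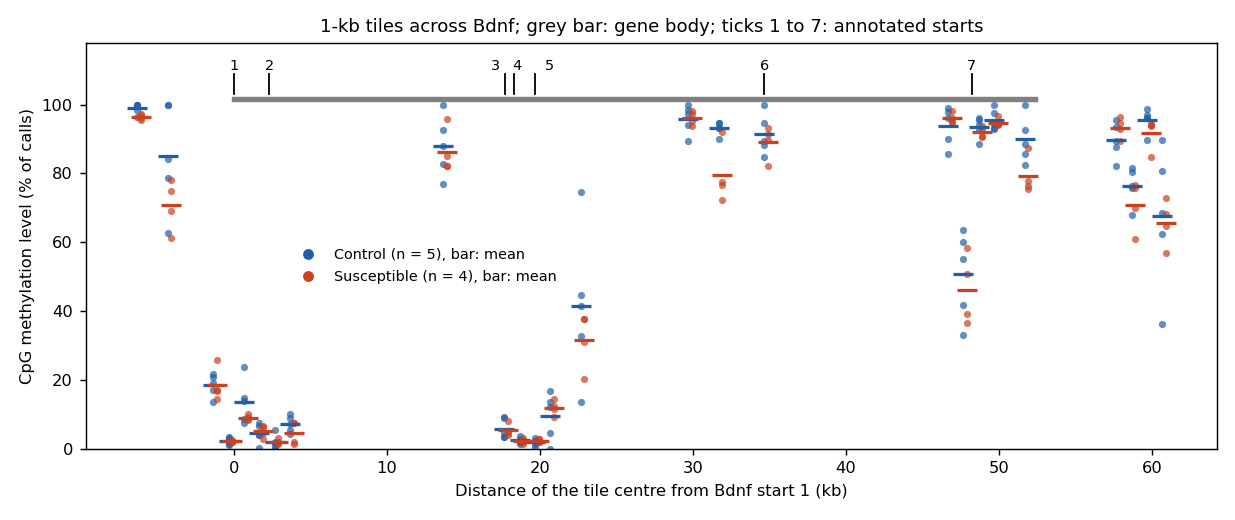
CpG methylation level, in percent of calls, of the 26 tested 1-kb tiles across Bdnf and its flanks, against the distance of the tile centre from start 1 in kb. Points are libraries and bars group means (blue Control, n = 5; red Susceptible, n = 4); the grey bar is the gene body and the numbered ticks its 7 starts. Tile means at starts 1 to 5 lie below 20%, and those farther away lie mostly above 70%.

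The other genes had their main low stretch at a start or CpG-rich end. It spanned 6 kb at Ntrk2, 5 kb at Ntf3, 4 kb at Gdnf, 3 kb at Ret, 3 kb at Gfra1 and 6 kb at Vgf. In Vgf the stretch covered most of the gene and read 4.13 ± 0.702% in Control and 4.48 ± 0.160% in Susceptible. Ntrk2 had 9 low stretches in all, 8 of them away from its start by 34432 to 284432 bp. The tile at 59011001 in Ntrk2 read 37.0, 44.2, 40.3, 49.4 and 48.1% in Control and 39.6, 34.8, 34.5 and 9.74% in Susceptible, so Susceptible 7 stood far below the others there. This tile was named after its values were seen. Susceptible 7 was also the lowest library at 58841001 and 59091001, at 19.8 and 17.0%. At 58915001 it was the highest Susceptible library, at 54.4%.

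No tile was called among 1041809 (0.0%), where 4.38% had an unadjusted p under 0.05 and 1.56% had groups that did not overlap. Of the 697 tiles of the 7 genes and their flanks, 0 were called, 21 had an unadjusted p under 0.05 and 1 had groups that did not overlap. Without Control 4, 1 tile elsewhere in the genome was called, and 0 of the 697. Unadjusted p under 0.05 was found at 1 of 26 tiles of Bdnf, 8 of 276 of Ntrk2, 2 of 67 of Ntf3, 1 of 39 of Gdnf, 1 of 58 of Ret, 8 of 206 of Gfra1 and 0 of 25 of Vgf, each a share below 4.38%. The limma test called 0 tiles. Adjusted p-values of all tiles named here were 0.997.

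The tile of smallest p in Bdnf was chr2:109706001-109707000, which holds 10 CpGs. It read 93.1, 90.1, 94.6, 94.6 and 93.3% in Control and 76.6, 77.6, 92.2 and 72.2% in Susceptible. Susceptible 2, 3 and 7 were below all Control libraries, and Susceptible 6 was within the Control range. The means of 93.1 ± 1.85% and 79.6 ± 8.68% differed by -13.5 points over 74 to 239 calls per library (exact permutation p = 0.0159).

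In Ntrk2 the tile at 58827001 read 79.6 ± 8.71% and 64.5 ± 13.2%, with Susceptible 7 lowest at 46.1%, and the difference of -15.1 points was -9.00 without it. In Ret the tile at 118164001 read 92.1 ± 3.88% and 85.6 ± 2.58%. In Gfra1 the tile at 58327001 read 89.9 ± 6.15% and 80.7 ± 3.75%. These 3 tiles lay inside their genes. For Gdnf the tile at 7808001, before start 1, read 91.8 ± 3.34% and 86.4 ± 2.07%. The Ntf3 tile at 126096001, in the flank, was higher in Susceptible at 42.1 ± 10.8% against 29.9 ± 11.6%, and the difference of 12.2 points was 7.70 without Control 8. The Vgf tile of smallest p, at 137033001, read 25.02 ± 6.46% and 32.6 ± 5.11% (unadjusted p = 0.0658 in the quasi-binomial model). In none of these 7 tiles were the groups apart.

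In each gene the tile of lowest level lay in the low stretch at a start or CpG-rich end. Control and Susceptible means were 0.808 and 1.29% at Gfra1, 1.16 and 1.43% at Gdnf, 1.79 and 1.403% at Ntrk2, 1.99 and 1.95% at Bdnf, 1.26 and 2.58% at Ntf3, and 2.08 and 1.21% at Vgf. At Ret this tile, at 118197001, read 1.35, 1.25, 1.404, 0.683 and 1.14% in Control and 1.965, 1.74, 1.47 and 2.15% in Susceptible. It was the only tile of the 697 whose groups did not overlap, a pattern found with higher levels in Susceptible at 0.598% of all tiles (unadjusted p = 0.0586 in the quasi-binomial model), and it lies inside the Ret window described above.

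Single CpGs were compared at 754 positions in the start windows and low stretches of the 7 genes. None was called by the quasi-binomial model or by limma, and neither test called any of the 5627449 CpGs tested (0.0%). In the quasi-binomial model an unadjusted p under 0.05 was found at 42 of the 754, or 5.57%, against 8.09% of all CpGs tested. Groups did not overlap at 8 of the 754, against 1.78% of all. Of the 42, 31 were higher and 11 lower in Susceptible, where 2.67% of all CpGs were higher and 5.42% lower. The 754 were taken from start windows and low stretches, where levels are mostly low, and all CpGs were taken at any level. The directions are therefore not compared at like levels. Since 8.09% exceeds the nominal 5%, unadjusted values at single CpGs are read with care.

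The CpG of smallest p was chr13:59075000 in Ntrk2, 268431 bp from the start. It read 47.8, 65.5, 42.9, 39.0 and 22.0% in Control and 78.2, 71.2, 95.6 and 64.4% in Susceptible, on 23 to 78 calls. Only Control 3 and Susceptible 7 crossed. The CpG at chr13:58955497, also in Ntrk2, read 8.51, 1.59, 16.4, 0 and 0% in Control and 40, 36.8, 17.8 and 62.5% in Susceptible, on 13 to 67 calls, and the groups were apart. The CpG at chr6:126167267, 523 bp before Ntf3 start 1, read 33.3, 13.3, 5.71, 30.4 and 0% in Control and 56.6, 62.1, 46.4 and 37.8% in Susceptible, on 15 to 53 calls. Its groups were also apart. The adjusted p of each of these 3 CpGs in the quasi-binomial model was 0.614.

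Other genes of neurotrophin and GDNF signalling gave the same count of calls. A list of 38 ligands, receptors, processing enzymes, signalling proteins and regulators had 36 genes with a tested start and 45 starts. Of the 45, 0 were called, 1 was higher and 1 lower at an unadjusted p under 0.05 (2.29 and 2.46% of all windows), and 27 had a higher mean in Susceptible, as did 47.6% of all windows. Of the 27, 5 are Cntfr starts whose windows overlap. The median difference was 0.156 points, against -0.0842 over all starts. Control means ran from 0.785 to 90.3%.

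Kidins220, which encodes a membrane scaffold that binds neurotrophin receptors, read 18.7, 16.5, 16.9, 15.8 and 17.2% in Control and 12.7, 11.7, 14.2 and 11.6% in Susceptible at its start. The groups did not overlap, and the means of 17.1 ± 1.07% and 12.5 ± 1.18% differed by -4.52 points (quasi-binomial model, unadjusted p = 0.00819, adjusted p = 0.977). The second of 2 starts without overlap, also lower as in 0.857% of all starts, was the gene end of Plat, the gene of tissue plasminogen activator, at 17.2 ± 3.53% and 13.4 ± 0.739%. Plat is named because it completes that count and was chosen after its values were seen. A start of Cntfr, the receptor gene of ciliary neurotrophic factor, read 26.0 ± 5.10% and 35.8 ± 9.12% (unadjusted p = 0.0279 in the quasi-binomial model). Its difference of 9.79 points was 5.25 points without Susceptible 6, which read 49.4%. Within 500 bp it was -10.3 points, the opposite direction. The 5 other Cntfr starts differed by 4.43, 1.77, 1.90, 5.34 and -4.82 points.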

How the data were processed

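The Zymo Pico Methyl-seq kit was used, per the labels' protocols. The submitters' processing notes name Bismark, Bowtie, Picard and the build mm10, without versions. The deposited files list cytosines with a count of calls and the percent read as C, per the file headers, at 10 or more calls. Methylated calls were recovered as count times percent. In promoter sequences, 396389 of 396389 listed CpGs fell on a CG.

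A quasi-binomial model with dispersion moderated as in limma and kept at 1 or more was fitted to all starts, bodies, 1-kb tiles and CpGs with 3 CpGs (1 for single CpGs) and 20 calls (10 for single CpGs) in every library. In the single-CpG family, CpGs at 0 or 100% in all calls were left out, a choice made after seeing the data. Sums over starts, bodies and tiles kept them. Adjustment was Benjamini-Hochberg over each family. Permutation tests were exact and two-sided over 126 splits. The limma test (3.58.1, R 4.3.3) used log2 of methylated over unmethylated calls, each plus 1. The fit was run on simulated data, with an outcome that is not reported here. Other alternatives were window width, CpG choice, minimum calls, a replicate block and leaving out libraries.

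Named were all 7 genes, per gene the tiles of smallest p and lowest level, the 3 CpGs of smallest p, and listed pathway genes with unadjusted p under 0.05 at a start. Gene bodies of the pathway list are not reported here. Genes, the pathway list and the marker lists were chosen with earlier results of these data known. The labels do not say that each sample is a separate animal, so p-values measure the spread between these samples, which may be technical. Exons, introns and hydroxymethylation were not analysed here.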

Additional observations from a re-analysis of the deposited data

Results flagged for a closer look

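Of 44 groups of library values examined for the start windows and bodies of the 7 genes, 2 held a library far from the rest of its group, measured as its gap to the nearest library over the range of the group. Chance alone gives about 1 in 20 such groups. At the Ntrk2 start Control 2 read 12.7%, against 15.6 to 16.8% in the other Control libraries. In the Ntf3 body Susceptible 7 read 65.8%, against 72.3 to 72.9% in the other Susceptible libraries, and this library also had the lowest autosomal level, 74.5%. Its part in the Ntf3 value was not tested.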

How the results depend on the processing

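No start window, body, tile or single CpG of the 7 genes, and no start of the pathway list, was called under any alternative run, and the smallest adjusted p was 0.349. Of 501 comparisons of 34 single results with an alternative, 435 kept their direction and 66 did not. In 17 results it was kept throughout. The 34 include tiles, CpGs and pathway starts that were chosen for their small p in these same data. The count of kept directions is therefore no measure of stability. The cause of these turns was not tested. All values are Susceptible minus Control in percentage points.

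Leaving out 1 library at a time turned 11 results. Their ranges were -0.335 to 0.658 for Bdnf start 2, -2.84 to 0.295 for start 3, -0.340 to 0.352 for start 4 and -0.0400 to 0.445 for start 5. They were -1.10 to 1.36 for the Ntrk2 start, -5.76 to 1.73 and -0.393 to 1.39 for Ntf3 starts 1 and 2, and -1.71 to 0.373 for Gdnf start 2. The bodies ran from -1.15 to 1.49 for Ntrk2, -1.22 to 1.15 for Ntf3 and -1.62 to 1.28 for Gdnf.

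With only CpGs listed in all 9 libraries, Bdnf starts 1, 2, 4, 5 and 7 gave 0.775, -0.268, -0.370, -0.0596 and 0.276, and the Vgf body 0.0283. With 20 calls at a cytosine, Bdnf starts 1 and 2 gave 0.690 and -0.608 and the Ntf3 body 0.220. Within 500 bp, Bdnf starts 2, 4 and 7 gave -0.483, -0.0589 and 1.57, Ntrk2 0.322, Ntf3 start 2 -1.07, Gdnf start 2 0.633, Gfra1 -0.199 and Cntfr -10.3. Within 2000 bp, Bdnf starts 2, 4 and 5 gave -1.52, -0.383 and -0.537, Ntf3 starts 1 and 2 0.432 and -0.362, and Gfra1 -1.54.

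Alternatives chosen after seeing the data were the next 3. Without Control 5 and Control 8, Bdnf starts 1, 4 and 5 gave 0.0342, -0.126 and -0.0835, Ntrk2 and Ntf3 start 1 gave 0.611 and 1.65, and the bodies of Ntrk2, Ntf3, Gdnf and Ret 0.362, 0.304, 0.101 and -0.326. Outside low-methylated stretches the same 4 bodies gave 0.0149, 0.105, 0.348 and -0.457. With equal weight per CpG, the Ntrk2 and Ret bodies gave 0.245 and -0.589.

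The replicate block could use only the numbers 2 and 3, which both groups share. It therefore kept only Control 2 and 3 and Susceptible 2 and 3. Its differences are plain differences between the means of these libraries, which the block itself does not move. Deviations of same-numbered libraries correlated at 0.0288 and -0.0324 over 36398 starts. Between groups, libraries of unlike number ran from -0.0900 (Control 4 and Susceptible 2) to 0.147 (Control 4 and Susceptible 7). These values cannot show whether same-numbered samples share more than a number. With only libraries 2 and 3 of each group, Bdnf starts 1 and 4 gave 0.103 and -0.371, the Ntrk2 start 3.15 and Ntf3 start 1 4.63. The Ntrk2, Ntf3 and Ret bodies gave 1.06, 2.48 and -1.48. No call changed in this setting, whose few libraries leave little room to find one. The Bdnf body gave -6.24 and Gdnf start 1 0.348.

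Depth limits single CpGs and thinly covered tiles, and among start windows Bdnf starts 3 and 6, and the minimum of 10 calls decides which CpGs enter each library.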
